A study of Mus musculus with 4 samples.

Results

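Lysosomal enzyme and membrane genes were followed in mouse embryonic stem (ES) cells after knockdown of Tex10. The list held 33 genes, chosen by function: 6 for membrane proteins, 9 for cathepsins and other proteases, 7 for glycosidases, 3 for sulfatases, 6 for lipid enzymes and cofactor proteins, and 2 for transcription factors. Of these, 32 had a row of their own among the 22739 gene names in the files. The remaining gene, Glb1, shared its row with Tmppe. The cells were CCE, a line of the 129SV strain, grown without feeder cells on gelatin-coated dishes, with serum and the cytokine LIF. Tex10 was depleted with a short hairpin named shTex10, while control cells received shLuci, a hairpin against firefly luciferase, with 2 libraries of poly(A) RNA per group. A single line and a single hairpin name per group were used, so off-target effects cannot be told apart from those of Tex10 loss. The design text calls the samples biological replicates and says no more of separate cultures, so a p-value here reflects only how far these libraries spread.

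The lysosome is an acidic organelle in which hydrolases break down proteins, glycans and lipids delivered by endocytosis and autophagy. Most of these hydrolases are made in the endoplasmic reticulum, tagged with mannose 6-phosphate and sorted from the Golgi. A proton pump, the V-ATPase, acidifies the lumen. TFEB and TFE3, factors of the MiT family, bind E-box sequences in many lysosomal gene promoters, and are held in the cytoplasm when the kinase complex mTORC1 is active on the lysosomal surface. In ES cells TFE3 is known for a role in holding cells in the naive state.

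The values were FPKM, read fragments scaled to transcript length and to library size, which allow levels of different genes to be compared. FPKM tables hold no read totals, so the depth behind each value is unknown, and only a rough relative depth could be read, from 83.5% to 94.6% of shLuci replicate 1 in the other libraries. Tex10 itself stood at 77.3 and 82.1 FPKM in shLuci and at 11.6 and 13.4 FPKM in shTex10, so 15.7% remained. ES cell markers were present in every library, with Pou5f1, the gene of Oct4, between 549 and 938 FPKM. The scale of the libraries bears on every change given here, and it can turn the direction of small ones. With the deposited values, the median of all tested genes lay at -0.14 on the log2 scale, and at 0.06 once each library was brought to the same sum over named genes. The share of higher genes among all calls was 38.3% as deposited, 44.8% after scaling to the same median and 45.3% after quantile normalization. It was 62.9% with the same sum over named genes and 73.4% with the same sum over all rows. That last share rests on 655 higher and 237 lower calls, beside 2350 and 3779 as deposited. The median of all genes in that scaling was -0.13.

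Lysosomal genes moved in both directions. Of the 30 with a mean of at least 1 FPKM over the 4 libraries, 8 rose, 6 fell and 16 did not pass the test (limma on log2(FPKM + 1), with p-values adjusted by the Benjamini-Hochberg method, BH, and a threshold of 0.05). Over all 11883 genes tested, 19.8% were called higher, 31.8% lower and 51.6% in either direction. The lysosomal genes stood at 26.7% higher, 20.0% lower and 46.7% in either direction, so their share of calls was near that of all genes. The median log2 change was -0.04 for the list and -0.14 for all genes tested. For 11 lysosomal genes the lower shTex10 library exceeded the higher shLuci library, for 10 the reverse was true, and 9 overlapped. Over all genes these shares were 28.3% and 48.1%, or 76.4% in either direction. Among the 30 genes tested, the rise of Man2b1 and the fall of Npc2 were the largest in each direction. In bulk RNA, fewer cells of a type and less RNA per cell cannot be told apart.

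**Figure D1:**
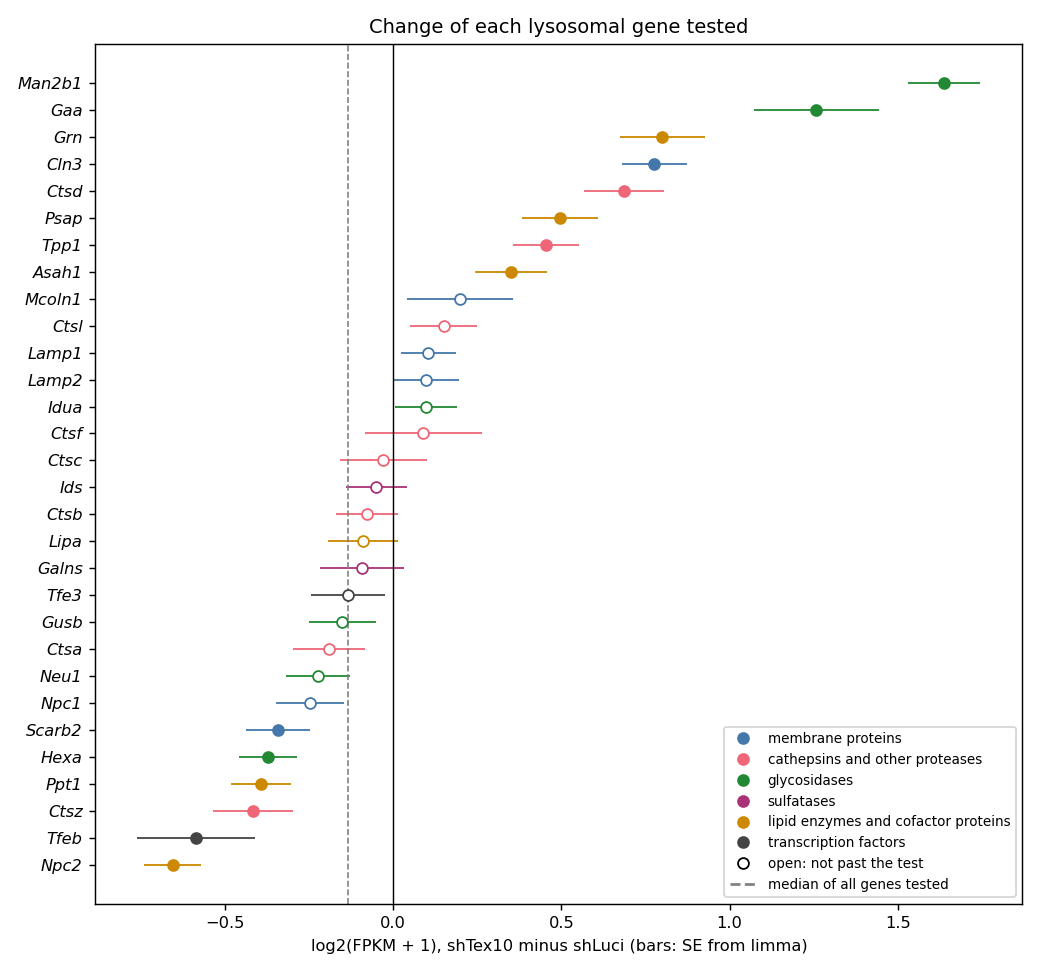
Log2 change of each of the 30 lysosomal genes tested, shTex10 minus shLuci on log2(FPKM + 1), with the standard error from limma as bars (2 libraries per group) and colours for the functional groups. Filled points passed the test (8 higher, 6 lower), open points did not (16), and the dashed line marks the median of all genes tested, -0.14.

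Among the transcription factors, Tfeb fell and Tfe3 did not pass the test. Tfeb (XLOC_011779, mm9 chr17:47873985-47929376) measured 22.3 and 17.0 FPKM in shLuci and 14.4 and 11.1 FPKM in shTex10. The groups did not overlap, and the gap between the lower shLuci and the higher shTex10 library was narrower than the spread within either group. Its log2 change was -0.59 (SE 0.17, limma, BH-adjusted p = 0.0348). The call was lost without shLuci replicate 1 (limma, BH-adjusted p = 0.0547), with no filter on low values (0.0724), after quantile normalization (0.0679) and with the same sum over named genes (0.169). Tfe3 stood at 27.1 and 24.4 FPKM in shLuci and at 24.9 and 21.8 FPKM in shTex10. These values overlapped (log2 change -0.13, SE 0.11, limma, BH-adjusted p = 0.341), and the sign turned to 0.08 with the same sum over named genes. The levels of the 2 genes were close in shLuci, at means of 19.7 ± 3.79 for Tfeb and 25.8 ± 1.95 FPKM for Tfe3 (SD, n = 2 each).

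E-box sequences were looked for near the start sites of the lysosomal genes, since TFEB and TFE3 are known to bind them. RefSeq promoter windows of build GRCm38.p6, from 250 bases before to 50 bases after each start, matched 28 of the 33 genes. The core E-box CACGTG lay in windows of 10 of these 28 genes (35.7%), against 8.09% of 27025 genes. The longer TCACGTGA, which contains the core, lay in 4 of 28 (14.3%, against 1.12% of genes). Both motifs were searched on both strands and read the same on each, and a match describes letters, not binding. A gene counted if any of its windows held the motif, and the 27025 genes were not chosen to be alike in level or base content. The motifs were picked as known from lysosomal gene promoters, so their excess in this list lends no support. The stretches that hold the longer matches are shown first, 5′ to 3′ on the gene's strand, with TCACGTGA in capitals.
Cln3 (GRCm38.p6 chr7:126583341-126583370, minus strand): tcacgggtactgTCACGTGAcccccaacct
Ctsd (chr7:142387908-142387937, minus strand): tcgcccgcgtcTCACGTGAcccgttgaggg
Mcoln1 (chr8:3500462-3500491, plus strand): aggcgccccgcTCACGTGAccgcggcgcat
Ctsa (chr2:164833743-164833772, plus strand): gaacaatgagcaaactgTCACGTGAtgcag
The matches begin 122 bases before the start of Cln3, 99 before that of Ctsd, 46 before that of Mcoln1 and 13 before that of Ctsa, which holds another match 4 bases after its start that is not shown.

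Other promoters held the core alone or lacked it. Gaa and Lamp1 are shown for their cores, in capitals, with 4 of them in the Lamp1 stretch. Man2b1 and Npc2 had the largest rise and the largest fall of the tested genes with a row of their own. Their promoters are shown because neither window holds the core. The joint row of Glb1 and Tmppe fell further than Npc2, and the Glb1 window holds the core.
Gaa (GRCm38.p6 chr11:119267811-119267840, plus strand): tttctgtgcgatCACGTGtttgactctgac
Lamp1 (chr8:13159086-13159160, plus strand): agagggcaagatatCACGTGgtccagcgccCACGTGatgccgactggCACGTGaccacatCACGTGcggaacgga
Man2b1 (chr8:85083169-85083268, plus strand): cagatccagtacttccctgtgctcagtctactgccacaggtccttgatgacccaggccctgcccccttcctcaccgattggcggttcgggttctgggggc
Npc2 (chr12:84773154-84773250, minus strand): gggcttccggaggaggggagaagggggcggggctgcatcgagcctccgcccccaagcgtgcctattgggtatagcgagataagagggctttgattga
Of the 10 genes with the core, Cln3, Ctsd and Gaa rose, Lamp1, Mcoln1, Ctsa, Ctsf and Ctsl did not pass, Sgsh was too low for the test, and the joint row of Glb1 and Tmppe fell (log2 change -0.73). Of all genes tested, whatever their promoter, 19.8% were higher and 31.8% lower. Of the 18 without it, 4 rose, 6 fell and 8 did not pass. No test was applied to this split, which was seen with the values known.

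Of the 6 membrane protein genes, Cln3 rose, Scarb2 fell and Lamp1, Lamp2, Npc1 and Mcoln1 did not pass the test. Cln3 encodes a lysosomal membrane protein that is lost in juvenile Batten disease. Cln3 (XLOC_025508, mm9 chr7:133714901-133728316) measured 4.44 and 4.14 FPKM in shLuci and 8.42 and 7.71 FPKM in shTex10. Both shTex10 libraries lay well above both shLuci libraries, a 1.88-fold rise (log2 change 0.78, SE 0.10, limma, BH-adjusted p = 0.00204). Scarb2, the gene of the receptor LIMP-2 that carries glucocerebrosidase to the lysosome, stood at 22.1 and 22.3 FPKM in shLuci and at 18.2 and 16.4 FPKM in shTex10. The groups did not overlap, and the log2 change was -0.34 (SE 0.09, limma, BH-adjusted p = 0.0277). Scarb2 (XLOC_021174, mm9 chr5:92870145-92934785) was the least stable of the 14 calls, lost in 7 of 16 alternative analyses, among them scaling to the same median (limma, BH-adjusted p = 0.0559) and leaving out shTex10 replicate 2 (0.186).

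Lamp1 and Lamp2 encode the most abundant glycoproteins of the lysosomal membrane. Lamp1 measured 147 and 145 FPKM in shLuci and 156 and 157 FPKM in shTex10. The groups did not overlap, but the difference was small against the error (log2 change 0.10, SE 0.08, limma, BH-adjusted p = 0.327), and it passed with the same sum over named genes (0.0232) and after quantile normalization (0.0103). Lamp2 overlapped between groups, at 17.2 and 18.9 against 18.6 and 20.1 FPKM. Npc1, which exports cholesterol from the lysosome together with NPC2, stood at 6.80 and 6.47 FPKM in shLuci and at 5.81 and 5.08 FPKM in shTex10 (log2 change -0.25, SE 0.10, limma, BH-adjusted p = 0.0901). Mcoln1, the gene of the calcium channel TRPML1, overlapped between groups (10.9 and 9.26 against 13.5 and 10.1 FPKM) and passed without shTex10 replicate 2 (limma, BH-adjusted p = 0.0436).

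Of the 8 protease genes tested, Ctsd and Tpp1 rose, Ctsz fell, and Ctsa, Ctsb, Ctsc, Ctsf and Ctsl did not pass. Ctsd encodes the aspartic protease cathepsin D and had the highest mean level of all listed genes in both groups. Ctsd (XLOC_025648, mm9 chr7:149561820-149573775) measured 165 and 140 FPKM in shLuci and 262 and 230 FPKM in shTex10. Both shTex10 libraries were far above both shLuci libraries, a 1.61-fold rise (log2 change 0.69, SE 0.12, limma, BH-adjusted p = 0.00598). Tpp1, the gene of a serine protease that trims tripeptides, stood at 18.3 and 19.3 FPKM in shLuci and at 24.6 and 27.7 FPKM in shTex10. Tpp1 (XLOC_025369, mm9 chr7:112893360-112900721) rose 1.39-fold (log2 change 0.45, SE 0.10, limma, BH-adjusted p = 0.0125), a call lost without shTex10 replicate 2 (0.0587).

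Ctsz, the gene of the carboxypeptidase cathepsin Z, measured 34.6 and 28.9 FPKM in shLuci and 24.6 and 22.4 FPKM in shTex10. Ctsz (XLOC_016407, mm9 chr2:174241304-174264493) fell by 0.42 on the log2 scale (SE 0.12, limma, BH-adjusted p = 0.0306). Its locus overlaps that of Nelfcd, at 29.0 and 28.1 against 25.5 and 23.0 FPKM, and the sources used here do not say whether strand was used to assign reads. The call of Ctsz was lost without shLuci replicate 1 (limma, BH-adjusted p = 0.159), without shTex10 replicate 2 (0.0778), with no filter on low values (0.0531), after quantile normalization (0.122) and with the same sum over named genes (0.273). Ctsl, the gene of the cysteine protease cathepsin L, was the second most abundant protease transcript, at 86.5 and 93.3 FPKM in shLuci and 94.5 and 105 FPKM in shTex10. Its groups did not overlap, yet the change did not pass (log2 change 0.15, SE 0.10, limma, BH-adjusted p = 0.249), except in the 3 alternatives given with the scalings and the block. Ctsb, Ctsc and Ctsf, further cysteine cathepsins, overlapped between groups, with log2 changes of -0.08, -0.03 and 0.09. Ctsa, whose product protects galactosidase and neuraminidase, stood at 25.1 and 22.9 FPKM against 22.4 and 19.5 FPKM (log2 change -0.19, SE 0.11, limma, BH-adjusted p = 0.187). Ctsh was too low for the test, at 0.481 and 0.427 FPKM in shLuci and 1.01 and 0.895 FPKM in shTex10.

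The glycosidases held the largest rises. Man2b1, the lysosomal alpha-mannosidase that trims mannose from glycoproteins, measured 20.8 and 18.5 FPKM in shLuci and 67.0 and 59.5 FPKM in shTex10. The lowest shTex10 library was far above the highest shLuci library. Man2b1 (XLOC_026417, mm9 chr8:87607167-87622638) rose 3.22-fold (log2 change 1.64, SE 0.11, limma, BH-adjusted p = 0.000335) and kept its call in each of the 16 alternative analyses. It was the single listed gene to do so. Gaa, the acid alpha-glucosidase that degrades glycogen, stood at 13.7 and 10.2 FPKM in shLuci and at 34.2 and 25.8 FPKM in shTex10. Replicate 1 was higher than replicate 2 in both groups, and the groups remained apart. Gaa (XLOC_004091, mm9 chr11:119129280-119147012) rose 2.51-fold (log2 change 1.26, SE 0.18, limma, BH-adjusted p = 0.00344).

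Hexa moved the other way. This gene encodes the alpha subunit of beta-hexosaminidase, which degrades GM2 ganglioside and is lost in Tay-Sachs disease. Hexa (XLOC_028056, mm9 chr9:59387473-59412919) measured 18.1 and 17.8 FPKM in shLuci and 13.8 and 13.4 FPKM in shTex10. Replicates were tight and the groups apart, with a log2 change of -0.37 (SE 0.09, limma, BH-adjusted p = 0.0152). The call was lost in 6 of 16 alternatives, including leaving out shLuci replicate 1 (limma, BH-adjusted p = 0.0771), shLuci replicate 2 (0.0581) or shTex10 replicate 2 (0.0746). The joint row of Glb1, the gene of beta-galactosidase, and Tmppe (XLOC_028347, mm9 chr9:114310212-114392724) measured 45.8 and 41.6 FPKM in shLuci and 27.1 and 24.7 FPKM in shTex10. The row fell (log2 change -0.73, SE 0.10, limma, BH-adjusted p = 0.00266), and the value cannot be divided between the 2 genes. Neu1, a sialidase gene, and Gusb, that of beta-glucuronidase, did not pass, with log2 changes of -0.22 and -0.15. Idua, a glycosidase of heparan and dermatan sulfate, had a log2 change of 0.10 and did not pass.

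None of the sulfatases, which remove sulfate groups from glycosaminoglycans, passed the test as deposited or in the alternatives. Ids stood at 4.43 and 4.58 FPKM in shLuci and at 4.21 and 4.43 FPKM in shTex10, and Galns at means of 1.75 ± 0.345 against 1.57 ± 0.208 FPKM (SD, n = 2 each), with overlap in both genes. Sgsh was at most 0.705 FPKM in any library and was not tested.

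Among the lipid enzymes and cofactor proteins, Grn, Psap and Asah1 rose, Npc2 and Ppt1 fell, and Lipa did not pass. Grn encodes progranulin, a secreted protein that is cut into granulins in the lysosome. Grn (XLOC_003964, mm9 chr11:102291635-102298124) measured 34.9 and 29.2 FPKM in shLuci and 60.5 and 52.6 FPKM in shTex10, a 1.76-fold rise with the groups apart (log2 change 0.80, SE 0.13, limma, BH-adjusted p = 0.00427). Psap, the precursor of the saposins that present sphingolipids to their hydrolases, stood at 82.6 and 70.7 FPKM in shLuci and at 114 and 103 FPKM in shTex10. Psap (XLOC_001922, mm9 chr10:59740375-59765348) rose 1.41-fold (log2 change 0.50, SE 0.11, limma, BH-adjusted p = 0.0145). The gap to the higher shLuci library was wider than the spread in either group, and the call was lost without shLuci replicate 2 (0.0546).

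Asah1, the gene of acid ceramidase, showed a smaller rise. Asah1 (XLOC_026822, mm9 chr8:42425996-42460051) measured 58.0 and 66.7 FPKM in shLuci and 76.0 and 83.2 FPKM in shTex10 (log2 change 0.35, SE 0.11, limma, BH-adjusted p = 0.0386). The call was lost without shLuci replicate 1 (limma, BH-adjusted p = 0.221) or shTex10 replicate 2 (0.159), and with no filter on low values (0.0580). Lipa, the acid lipase that frees cholesterol from its esters, overlapped between groups (2.84 and 3.23 against 2.61 and 2.97 FPKM).

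Npc2, a small soluble protein that hands cholesterol to NPC1, had the largest fall of the listed genes with a row of their own. Npc2 (XLOC_006050, mm9 chr12:86095508-86114062) measured 45.1 and 43.3 FPKM in shLuci and 27.8 and 27.6 FPKM in shTex10. Replicates were close and the groups far apart, so that 62.6% of the shLuci mean remained (log2 change -0.66, SE 0.08, limma, BH-adjusted p = 0.00228). Ppt1, a thioesterase gene for palmitoylated proteins, stood at 14.1 and 14.7 FPKM in shLuci and at 10.5 and 11.0 FPKM in shTex10. Ppt1 (XLOC_018775, mm9 chr4:122513469-122563124) fell by 0.39 on the log2 scale (SE 0.09, limma, BH-adjusted p = 0.0141). Its locus overlaps that of Cap1, at 99.6 and 93.5 against 80.8 and 79.3 FPKM, whose part in the value was not tested. The call of Ppt1 was lost with the same sum over named genes (limma, BH-adjusted p = 0.133), and without shLuci replicate 2 (0.0726) or shTex10 replicate 1 (0.0650).

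**Figure D2:**
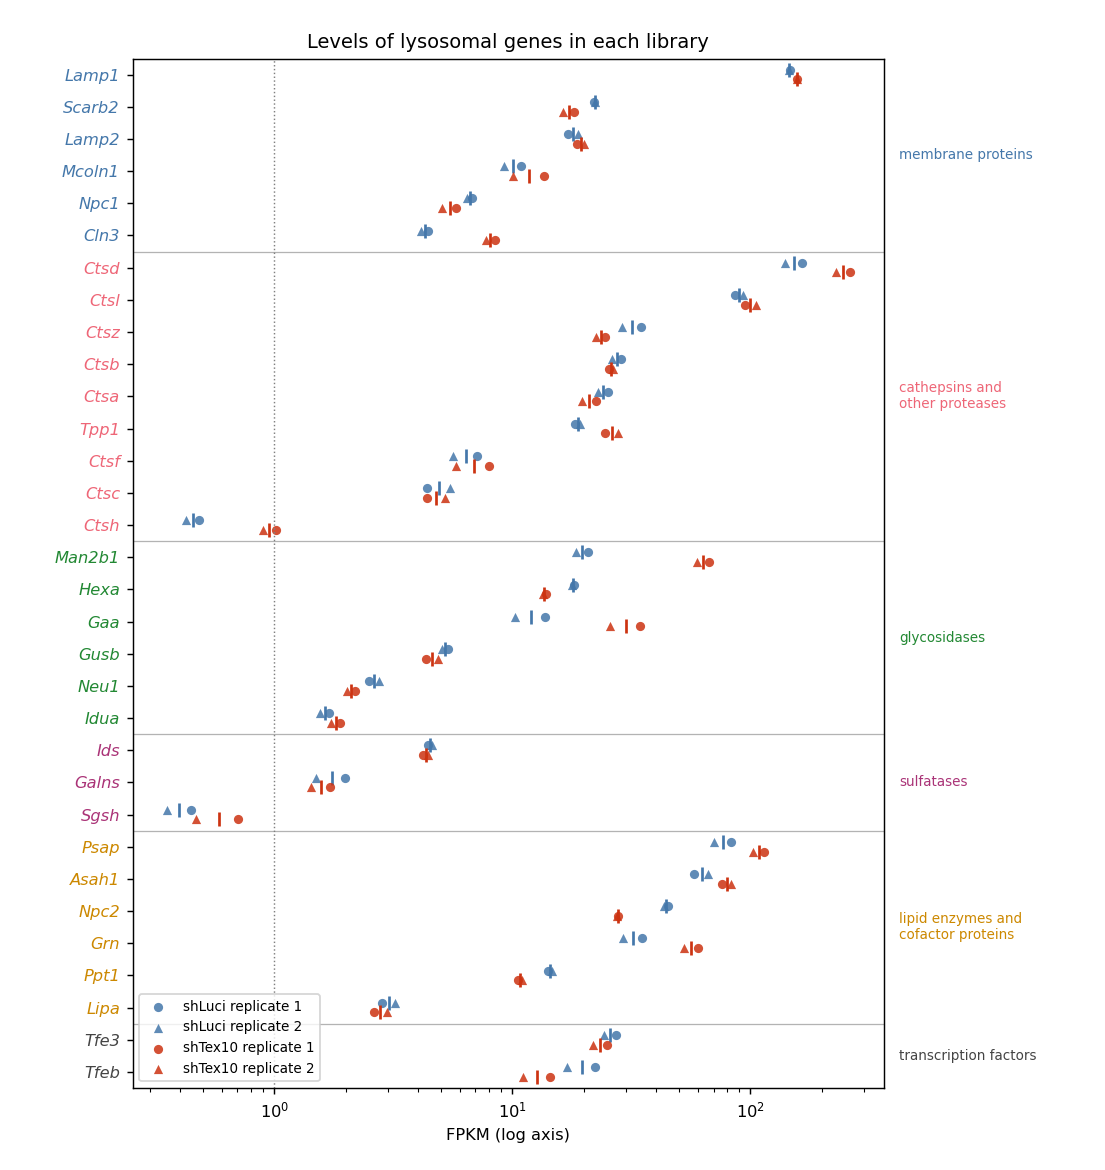
FPKM of the 32 lysosomal genes with a row of their own in each library, on a log axis, grouped by function and ordered within each group by the shLuci mean (vertical ticks are group means, 2 libraries per group, and the dotted line marks 1 FPKM). Ctsd and Lamp1 stand highest, Man2b1 and Gaa show the widest gaps between the groups, and Ctsh and Sgsh lie below the filter.

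The levels spanned a wide range in shLuci, from Ctsd at 152 ± 17.0 to Sgsh at 0.399 ± 0.0653 FPKM (SD, n = 2). Ctsd, Lamp1, Ctsl, Psap and Asah1 stood at 50 FPKM or more, 15 genes between 10 and 50, 10 between 1 and 10 and 2 below 1. Neighbours in this order did not overlap in 15 of 31 pairs, and Ctsd and Lamp1 did overlap. Man2b1 moved from close to Tpp1 and Lamp2 in shLuci to 63.3 ± 5.32 FPKM in shTex10. That mean was above those of Npc2 and Grn, but the Man2b1 libraries (67.0 and 59.5 FPKM) overlapped those of Grn (60.5 and 52.6 FPKM). The summed FPKM of the 32 rows was 934 and 879 in shLuci and 1148 and 1086 in shTex10, a 1.23-fold difference of the means to which no test was applied. As a share of the sum over named genes, these rows made up 0.152% and 0.139% in shLuci and 0.218% and 0.202% in shTex10. The named sum itself was 613642 and 632067 FPKM in shLuci and 525878 and 537692 FPKM in shTex10. Part of the larger share therefore comes from that smaller sum. Without the 14 called genes the sums differed 1.04-fold. Those genes were picked by their difference in these same libraries, so the remainder says nothing of the list. Ctsd alone made up 17.6% and 16.0% of the sum in shLuci and 22.8% and 21.2% in shTex10.

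Scaling changed which falls were called. With the same sum over named genes the 8 rises kept their calls, 5 of the 6 falls lost theirs, and Lamp1, Lamp2 and Ctsl passed as well. Npc2 was then the single gene still called lower. The same scaling called 27.2% of all genes higher and 16% lower. After quantile normalization the 8 rises were also kept, with Lamp1 and Ctsl added. Npc2 and Ppt1 remained lower and Neu1 was added, while Ctsz, Hexa, Scarb2 and Tfeb lost their calls, beside 20.2% of all genes higher and 24.5% lower. Median scaling cost Scarb2 its call, with 8 lysosomal genes higher and 5 lower beside 21.7% and 26.8% of all genes. With the same sum over all rows the errors grew, and Man2b1 was the only listed gene called (limma, BH-adjusted p = 0.00416), with 5.51% of all genes called higher and 1.99% lower. Each of the 14 called genes kept its direction under the 4 scalings.

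Filters and single libraries also changed calls. With no filter Asah1, Ctsz and Tfeb lost their calls and Ctsh was called higher, for 8 higher and 4 lower beside 16% and 18.8% of all genes. At a mean of at least 5 FPKM the counts stayed at 8 and 6, beside 15.1% and 36.5%. Without shLuci replicate 1, 7 lysosomal genes were higher and 2 lower, beside 18.3% and 27.8% of all genes. Without shLuci replicate 2 these were 7 and 3, beside 17.9% and 27.7%. Leaving out shTex10 replicate 1 gave 8 and 5, beside 18.5% and 28.8%, and leaving out shTex10 replicate 2 gave 7 and 3, beside 19.5% and 29.2%. With the replicate number as a block the counts were 11 and 10, beside 27% and 48% of all genes, and Ctsa, Ctsl, Lamp1, Mcoln1, Neu1, Npc1 and Tfe3 were added to the 14 calls.

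**Figure D3:**
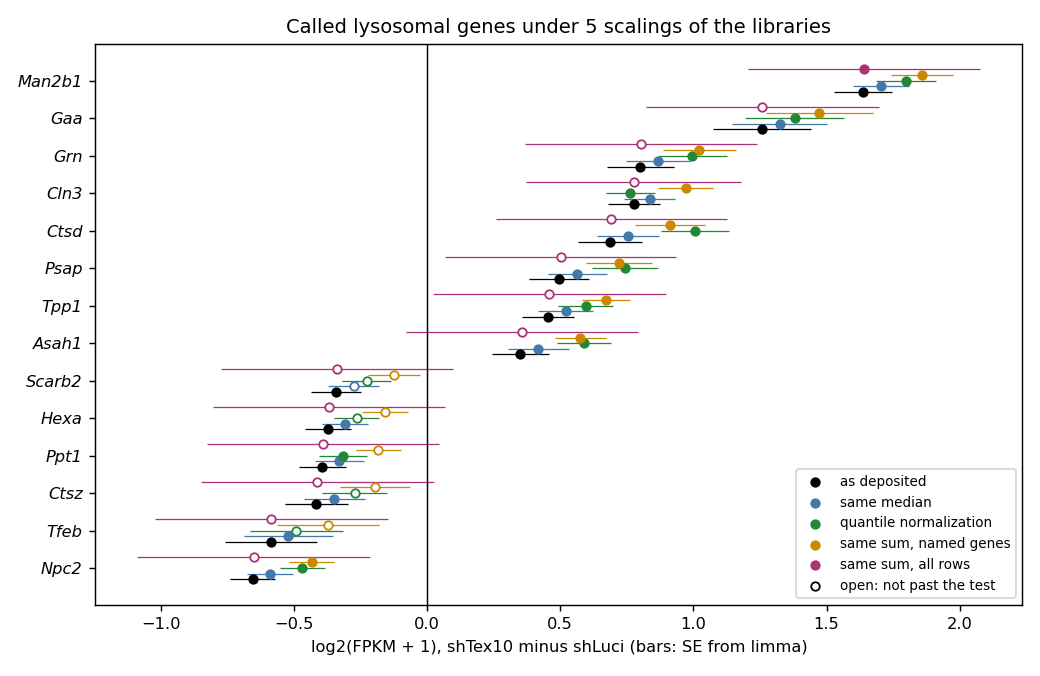
Log2 change of the 14 called lysosomal genes, shTex10 minus shLuci on log2(FPKM + 1), with FPKM as deposited and under 4 other scalings, with standard errors from limma as bars. Filled points passed the test; the 8 rises stay filled in every scaling but the same sum over all rows, where Man2b1 alone passed, and the falls lie closer to 0 with the same sum over named genes.

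Other lysosomal genes, from lists drawn up by function, were as mixed. Of 24 other hydrolases tested, 4 rose, 5 fell and 15 did not pass, with a median log2 change of -0.07. That is 16.7% higher and 20.8% lower, beside 19.8% and 31.8% of all genes. With the same sum over named genes 7 were higher and 3 lower (29.2% and 12.5%), near the 27.2% and 16% of all genes. Smpd1, the acid sphingomyelinase gene, stood at 4.25 and 6.45 FPKM in shLuci and at 12.7 and 10.3 FPKM in shTex10 (log2 change 0.99, SE 0.19, limma, BH-adjusted p = 0.00835). Ctsw, a cathepsin gene known from lymphocytes, rose from 1.97 ± 0.118 to 3.67 ± 0.417 FPKM (SD, n = 2 each). Acp5, an acid phosphatase gene, fell from 2.67 ± 0.278 to 1.33 ± 0.147 FPKM and Dnase2a, the acid nuclease gene, from 6.58 ± 0.797 to 3.76 ± 0.248 FPKM. Man2b2, a relative of Man2b1 named after its value was seen, rose as well (log2 change 0.71, SE 0.14, limma, BH-adjusted p = 0.00955).

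Of 17 other membrane protein genes tested, 4 rose, 2 fell and 11 did not pass, with a median log2 change of 0.11. That is 23.5% higher and 11.8% lower, beside 19.8% and 31.8% of all genes. With the same sum over named genes 8 were higher and 1 lower (47.1% and 5.88%), beside 27.2% and 16% of all genes. Cd63, a tetraspanin gene, rose from 147 ± 0.128 to 197 ± 0.122 FPKM and Slc17a5, the sialic acid exporter gene, from 2.40 ± 0.0433 to 4.06 ± 0.0204 FPKM. Tmem192 fell from 37.0 ± 2.43 to 24.7 ± 0.975 FPKM. Of the 17 V-ATPase subunit genes, 2 rose, 1 fell and 14 did not pass, at a median of 0.02. That is 11.8% higher and 5.88% lower, again beside 19.8% and 31.8% of all genes. Atp6v1d, a subunit of the pump's central stalk, rose from 55.3 ± 4.61 to 84.8 ± 8.52 FPKM. Atp6v1a, the catalytic subunit, rose by 0.37 and Atp6v1b2 fell by 0.30 on the log2 scale, calls lost in 4 and 8 of 16 alternatives. With the same sum over named genes, and after quantile normalization, the V-ATPase count became 6 higher and 0 lower (35.3% and 0%). Of all genes, 27.2% were higher and 16% lower in the first scaling, and 20.2% and 24.5% in the second. Leaving out each library in turn, the V-ATPase median lay between -0.013 and 0.033.

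Sorting genes moved in both directions. Of 15 sorting genes tested, 4 fell, 2 rose and 9 did not pass (median -0.16, near the -0.14 of all genes). The shares were 13.3% higher and 26.7% lower, beside 19.8% and 31.8% of all genes. Gnptab, which makes the mannose 6-phosphate tag, fell from 8.68 ± 0.381 to 3.65 ± 0.266 FPKM (log2 change -1.06, SE 0.10, limma, BH-adjusted p = 0.000806). Gga2, an adaptor gene for mannose 6-phosphate receptors, fell from 76.4 ± 1.91 to 45.4 ± 0.338 FPKM. Cln6 rose 2.46-fold, from 5.35 and 3.76 FPKM in shLuci to 12.8 and 9.62 FPKM in shTex10, and Cln8 rose 1.69-fold. Both encode membrane proteins of the endoplasmic reticulum that help lysosomal enzymes leave it. The sorting list turned to 4 higher and 4 lower after median scaling (26.7% each, beside 21.7% and 26.8% of all genes). After quantile normalization or with the same sum over named genes it held 4 higher and 2 lower (26.7% and 13.3%). Of all genes, 20.2% were higher and 24.5% lower after quantile normalization, and 27.2% and 16% with the same sum over named genes.

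Of 18 genes for mTORC1, the Ragulator and Rag complexes and the MiT family, 7 fell, 1 rose and 10 did not pass, at a median of -0.27. That is 5.56% higher and 38.9% lower, beside 19.8% and 31.8% of all genes. Rragb, a Rag GTPase gene, fell from 17.0 ± 0.735 to 8.07 ± 0.142 FPKM and Fnip2, a folliculin partner gene, from 8.89 ± 0.286 to 4.10 ± 0.110 FPKM. Flcn, the gene of folliculin, which acts on Rag GTPases, rose from 16.8 ± 1.66 to 24.7 ± 1.44 FPKM. Mitf, a relative of Tfeb named after its value was seen, measured 6.17 and 6.01 FPKM in shLuci and 2.65 and 3.03 FPKM in shTex10 (log2 change -0.89, SE 0.10, limma, BH-adjusted p = 0.00140). With the same sum over named genes the list counted 4 lower and 2 higher (22.2% and 11.1%), beside 16% lower and 27.2% higher of all genes. Leaving out each library in turn, the list's median was -0.20 without shLuci replicate 1 and -0.19 without shTex10 replicate 2. It was -0.31 without shLuci replicate 2 and -0.37 without shTex10 replicate 1. Fewer falls were called in each of these fits but the last, and the median of all genes stayed between -0.13 and -0.14.

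Of 31 autophagy genes, 9 rose, 4 fell and 18 did not pass, at a median of 0.03, so 29.0% were higher and 12.9% lower, beside 19.8% and 31.8% of all genes. The 9 rises became 6 with no filter, 5 without shLuci replicate 1, 4 without shLuci replicate 2, 4 without shTex10 replicate 1 and 6 without shTex10 replicate 2, where the falls numbered 4, 3, 4, 5 and 4. With the same sum over named genes 11 were higher and 1 lower (35.5% and 3.23%), beside 27.2% and 16% of all genes. Gabarapl2, a ubiquitin-like protein gene of the autophagosome membrane, rose from 182 ± 0.655 to 293 ± 0.0905 FPKM, and Uvrag, a subunit gene of a lipid kinase complex, rose from 9.46 ± 0.712 to 14.1 ± 0.258 FPKM. Map1lc3a, of the same family as Gabarapl2, fell from 22.8 ± 1.97 to 13.1 ± 2.14 FPKM, and Wipi2, a phosphoinositide-binding protein gene, from 33.2 ± 1.87 to 23.5 ± 0.192 FPKM. Sqstm1, the gene of the autophagy receptor p62 and named after its value was seen, measured 116 and 103 FPKM in shLuci and 158 and 143 FPKM in shTex10 (log2 change 0.45, SE 0.11, limma, BH-adjusted p = 0.0152). That call was lost without shLuci replicate 2 (0.0651) or shTex10 replicate 1 (0.0512).

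**Figure D4:**
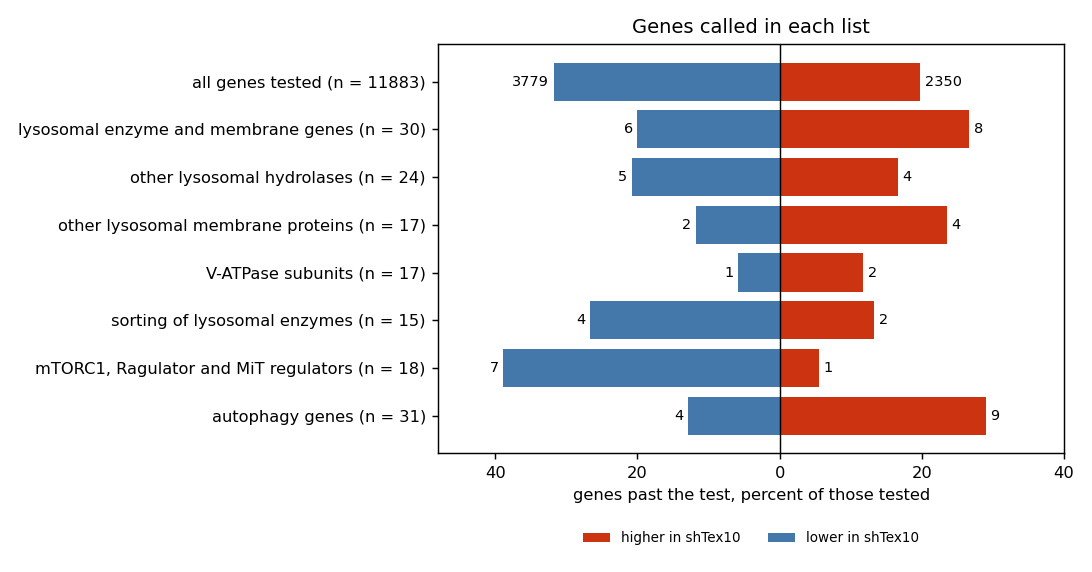
Percent of tested genes called lower (left, blue) and higher (right, red) in shTex10 for all genes, the lysosomal genes and 6 lists of related genes, with the number called beside each bar and the number tested in the labels (limma, BH-adjusted p under 0.05). The lysosomal genes count 8 higher and 6 lower beside 2350 and 3779 of all genes.

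Markers of other cells moved in the same libraries. Trophoblast markers summed to 260 and 269 FPKM in shLuci and to 586 and 581 FPKM in shTex10. Most of these sums came from the keratin genes Krt8 (132 and 132 against 294 and 284 FPKM) and Krt18 (107 and 118 against 234 and 239 FPKM). Of this list 7 of 14 passed the filter and all 7 were higher, beside 19.8% of all genes. Plac1, at a mean of 0.932 FPKM in shLuci, passed it only through its shTex10 values. The 4 placental cathepsins of that list (Ctsj, Ctsm, Ctsq and Ctsr) were at most 0.415 FPKM. Markers of primitive and visceral endoderm, cells rich in lysosomes, summed to 15.0 and 14.2 FPKM in shLuci and to 24.5 and 23.1 FPKM in shTex10. Lrp2 made up most of these sums (10.6 and 10.1 against 18.1 and 16.4 FPKM). In this list 2 of 12 passed the filter, Dab2 and Lrp2, both higher, beside 19.8% of all genes. Gata4, Gata6 and Sox17 stayed at or below 0.932 FPKM, and Ttr was listed at 0 in every library. Below the filter, Sox17 and Cubn lay higher in both shTex10 libraries, while Sox7 and Afp lay lower in both. Macrophage markers summed to between 10.9 and 11.2 FPKM in shLuci and between 16.2 and 17.1 FPKM in shTex10, nearly all of it from Cd68, itself a lysosomal membrane protein gene, at 9.73 to 15.2 FPKM. Fibroblast markers overlapped, at 37.8 and 29.2 against 44.0 and 32.7 FPKM, with Lum and Fap at or below 0.0689 FPKM. ES cell markers summed to 3019 and 2863 FPKM in shLuci and to 1969 and 1889 FPKM in shTex10. Of these 10 genes 7 were called lower, beside 31.8% of all genes, while Sox2, Sall4 and Dppa4 did not pass. After quantile normalization 3 were called lower, beside 24.5% of all genes. The part of these cell states in the lysosomal values was not tested.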

How the data were processed

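RNA was sequenced from 2 shLuci and 2 shTex10 libraries of CCE cells as poly(A)-selected TruSeq libraries, per the labels. Cufflinks 2.1.1, Bowtie2 2.1.0 and TopHat2 2.0.10 are listed in the submitters' processing notes, with mm9 as build. Which annotation was used, with what options, and whether strand was kept is not given in the sources used here. Values deposited by the authors are FPKM, 1 table per library over a shared set of loci, 23311 named by gene and 7329 unnamed. FPKM keeps no counts, and unnamed rows took 56.3% to 71.6% of each library's sum, so scale is uncertain. Relative depth was read from the smallest value above 0 at each locus length among unnamed rows, taken as 1 read. Only 20.2% to 23.5% of lengths lay at the most frequent ratio, so it is rough.

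Named rows that share a name (445 names) were summed, and 357 rows name several genes. Genes with a mean of at least 1 FPKM (11883) were compared by limma (version 3.58.1, under R 4.3.3) after taking log2(FPKM + 1), without a block. The eBayes step had its trend option on, and the threshold was 0.05 after Benjamini-Hochberg (BH) adjustment over all tested genes. Fold changes on this scale understate those of low genes. The fit was also run on simulated data with independent libraries and a common spread for all genes. These settings differ from the data here, so that run cannot vouch for the calls. With 2 libraries a side, the smallest two-sided p of an exact permutation test is 0.33. Folds without log2 are ratios of mean FPKM. The named genes were the 33 listed genes, Tex10, and up to 2 called genes with the smallest p per direction in each related list; 1 of these genes is not reported here. Mitf, Man2b2, Sqstm1, the overlapping genes and the cell markers singled out were chosen with their values seen. The members and lists were chosen with earlier results of these data known, so no list test was made. Loci of 8 listed genes overlap another row, 2 of them called. Loci are given as in the files. Alternatives were pseudocounts of 0.1 and 0.5, no filter, a mean of at least 5 FPKM, 4 scalings, other eBayes settings, a replicate block, the highest row per name and leaving out each library.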

Additional observations from a re-analysis of the deposited data

How the results depend on the processing

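Man2b1 kept its call in all 16 alternatives, and the other 7 rises and the fall of Npc2 in 12 to 15 of them. Changing the pseudocount, the eBayes settings or the row per name left the 14 calls as they were. For the listed genes, the count lower, 6 as deposited, became 3 after quantile normalization, 1 with the same sum over named genes, 0 with the same sum over all rows and 10 with the replicate number as a block, and the count higher, 8, became 1 with the same sum over all rows. In that last scaling 0 listed genes were lower by limma. Leaving out each library in turn gave 7 to 8 higher and 2 to 5 lower, with the median between -0.027 and 0.0095. Left with 1 library in a group, the fit assumes that it varies like the other group. The median log2 change of the listed genes, -0.04, was 0.031 with no filter, 0.098 with a mean of at least 5 FPKM, 0.017 after median scaling and 0.15 with the same sum over named genes. Of all genes, the 2350 higher became 1292 with a mean of at least 5 FPKM and 655 with the same sum over all rows, and the 3779 lower became 1906 with the same sum over named genes, 237 with the same sum over all rows and 5709 with the block. The smaller number tested accounts for part of the count at 5 FPKM, and the other causes were not tested.

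Signs turned only in genes that did not pass. With the same sum over named genes these were Ctsa (0.028), Ctsb (0.14), Ctsc (0.16), Gusb (0.038), Ids (0.14), Galns (0.048), Lipa (0.080) and Tfe3 (0.085). After median scaling they were Ctsc (0.028) and Ids (0.0066), and after quantile normalization Ctsb (0.068) and Idua (-0.077). Leaving out each library in turn, Galns ranged from -0.22 to 0.035, above 0 without shLuci replicate 1. Ctsc ranged from -0.16 to 0.10 and Ctsf from -0.12 to 0.30, both with the sign turned without shLuci replicate 2 or shTex10 replicate 1. Same-numbered libraries deviated together (r = 0.33 across 11883 genes, which are not independent), but the labels do not say that a number marks a shared batch, so the reported calls use no block. Depth is unknown, which limits what can be said of Ctsh and Sgsh.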
